A study of Mus musculus with 6 samples.

Results

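Complement components and their regulators were followed in the skin of mice, in a comparison of 3 wild-type (WT) mice with 3 mice carrying the LynDN transgene. The genes were chosen by name: a row counted where its probe carried exactly 1 gene symbol and that symbol was C3, C4b, C2, Cfb, C1ra, C1s, Serping1, C3ar1 or C5ar1. Of these 9 names 7 were found, each with 1 probe, among 18617 named genes. C3 and C1s matched no probe and were not analysed here. The transgene is a form of the tyrosine kinase Lyn, spelled LynDeltaN in the title of the series. The sources used here do not give its promoter or the strain, age and sex of the mice.

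RNA of whole skin was compared on 2-colour arrays, where each array carries 1 LynDN mouse and 1 WT mouse in different dyes (Cy3 and Cy5). LynDN mouse 1 was set against WT mouse 1 (pair 1), LynDN mouse 2 against WT mouse 3 (pair 2) and LynDN mouse 3 against WT mouse 2 (pair 3). Each pair had 2 arrays, of opposite dye, so 6 arrays gave 3 pair values per gene, and n = 3 pairs throughout unless stated. Values are log2 ratios as deposited. The numerator is not stated in the labels, and neither is the log base, taken here as 2. Positive and negative therefore mark opposite sides of the same comparison of genotypes. If WT were the numerator, all signs would turn together.

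Complement is a cascade of plasma and tissue proteins that marks microbes and damaged cells. In the classical pathway C1q binds a target and activates the protease C1r, which cuts and activates the protease C1s. C1s then cleaves C4 and C2 to form an enzyme that splits C3. In the alternative pathway factor B (Cfb) takes the place of C2, and properdin (Cfp) stabilises the complex. The fragments C3a and C5a attract and activate leukocytes through C3ar1 and C5ar1, while the inhibitor encoded by Serping1 blocks C1r and C1s. The liver supplies most plasma complement, but fibroblasts, keratinocytes and macrophages of the skin also make components.

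Pair 1 stood apart from the others in 3 of 4 measured sex-linked genes, and its part in the results below was not tested beyond leaving it out. Its Y-linked gene Eif2s3y had a log2 ratio of 3.50 against -0.0040 and 0.028 in pairs 2 and 3, Kdm5d had 1.24 against -0.047 and 0.13, and Xist, expressed from the inactive X chromosome, had -1.06 against -0.091 and -0.14. The Y-linked gene Uty did not follow them, with 0.067 in pair 1 against 0.13 and -0.48. The labels give 1 array, of pair 2, another date than the rest. The array medians lay between -0.017 and 0.0014. The SD over all probes was 0.26 and 0.27 on the arrays of pair 1 and 0.33 to 0.36 on those of pairs 2 and 3. The alarmin gene S100a9 had 5.65, 5.35 and 5.61 in pairs 1, 2 and 3 (limma adjusted p = 0.000149, and 0.446 without variance moderation), so for that gene pair 1 lay beside the others. Spot intensities were not used here, so ratios could not be set against background, and the tissue label could not be checked by expression levels. In whole skin, fewer cells of a type and less RNA per cell cannot be told apart.

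C1ra, C4b, Cfb and Serping1 lay well above 0 in pairs 2 and 3 and near or below 0 in pair 1, whereas C2, C3ar1 and C5ar1 lay near 0 or turned sign between arrays. For the first 4 genes, a grouping made after their values were seen, the 16 array values of pairs 2 and 3 ran from 0.29 to 1.15 and those of pair 1 from -0.44 to 0.13. Over all 3 pairs 0 of 7 genes passed the limma test at an adjusted p of 0.05, against a background of 0.0175% of 22879 rows called positive. With pair 1 left out, 4 of 7 passed, all positive, against a background of 3.22%. That fit rests on 2 pairs, and it was the only 1 of 13 alternative settings in which any of the 7 genes passed.

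C1ra encodes C1r, the protease of the C1 complex that cuts C1s. With the array carrying LynDN in Cy3 named first, as for each gene below, its ratio was 0.04 and 0.10 for pair 1, 0.93 and 0.72 for pair 2, and 1.15 and 1.01 for pair 3. The 2 arrays of each dye swap thus lay close together, and the arrays of pair 1 did not overlap those of the other pairs. The mean was 0.66 ± 0.52 (SD, n = 3), or 1.58-fold, with a 95% interval from 0.15 to 1.17 and limma adjusted p = 0.339. Without pair 1 the mean was 0.95 (SE 0.08), or 1.93-fold, and the gene passed with limma adjusted p = 0.00902. This SE, like each SE below, is limma's moderated error and not the plain error of the 2 pair values. Among all rows C1ra stood at percentile 98.6 in pair 2 and 99.2 in pair 3, against 73.4 in pair 1.

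In the RefSeq gene table C1ra is flanked by C1rl, which encodes a C1r-like protease, and by C1s1, and C1rb and C1s2 follow. C1s2, a close relative of C1s, was measured by 2 probes and ran beside C1ra, with 0.07, 0.51 and 0.76 in pairs 1, 2 and 3. C1rl, at the other side of C1ra, had 0.06, 0.12 and 0.05. C1ra exceeded C1rl by 0.70 in pair 2 and 1.03 in pair 3 on the log2 scale, and by 0.01 in pair 1. C1ra and C1rb, like C1s1 and C1s2, are near copies whose transcripts 1 probe may not separate. The promoters of these measured genes are shown because the genes lie near each other. In pairs 2 and 3 C1rl had smaller ratios than C1ra and C1s2, and differences between the genes were not tested. Each line runs 5′ to 3′ from 250 bases before to 50 after the start of transcription, from RefSeq on GRCm38.p6. C1ra is chr6:124512371-124512670 on the plus strand, C1s2 is chr6:124636036-124636335 on the minus strand, and C1rl is chr6:124492863-124493162 on the plus strand. Capitals mark matches to the motifs described after the sequences.
C1ra: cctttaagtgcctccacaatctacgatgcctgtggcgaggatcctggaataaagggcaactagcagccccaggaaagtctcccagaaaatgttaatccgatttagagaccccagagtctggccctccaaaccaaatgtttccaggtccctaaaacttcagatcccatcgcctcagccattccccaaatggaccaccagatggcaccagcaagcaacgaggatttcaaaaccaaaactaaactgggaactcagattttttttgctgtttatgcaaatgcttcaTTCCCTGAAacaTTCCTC
C1s2: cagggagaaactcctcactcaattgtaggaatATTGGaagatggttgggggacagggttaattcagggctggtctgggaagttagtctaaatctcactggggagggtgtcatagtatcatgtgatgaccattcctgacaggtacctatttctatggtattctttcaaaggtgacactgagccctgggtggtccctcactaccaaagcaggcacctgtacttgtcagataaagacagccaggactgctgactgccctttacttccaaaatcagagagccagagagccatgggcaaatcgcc
C1rl: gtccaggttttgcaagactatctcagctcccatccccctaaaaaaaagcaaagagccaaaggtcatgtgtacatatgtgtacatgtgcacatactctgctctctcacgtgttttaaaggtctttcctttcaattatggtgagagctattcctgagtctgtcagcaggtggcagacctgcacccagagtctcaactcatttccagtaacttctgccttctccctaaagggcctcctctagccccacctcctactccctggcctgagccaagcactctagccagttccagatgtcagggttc

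The 8 motifs searched, on both strands, were the STAT-binding GAS element TTCNNNGAA, the interferon-stimulated response element (GAAA, 2 bases of any kind, GAAA), the NF-kB consensus, the PU.1 core GAGGAA, the CCAAT box, the TATA box TATAAA, the CRE core TGACGT and the C/EBP palindrome. C1ra held a GAS match starting 33 bases and a PU.1 core starting 45 bases downstream of the start, and these do not overlap. C1s2 held a CCAAT box, and C1rl held none of the 8. Of 32851 promoters of the same length, 8.30% held the GAS element, 28.3% the PU.1 core and 37.4% the CCAAT box. The shares were 3.44% for the interferon-stimulated response element, 4.51% for NF-kB, 13.6% for the TATA box, 7.51% for the CRE core and 0.183% for the C/EBP palindrome. Promoter entries were found for 3 of the 7 measured genes, and beside C1ra these were C3ar1, with a TATA box, and C5ar1, with a CCAAT box. The motifs were chosen with the ratios known, and a match is a description of letters only.

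C4b encodes C4, the substrate of C1s and the scaffold of the classical C3-splitting enzyme. The ratio was 0.07 and 0.13 for pair 1, 0.54 and 0.64 for pair 2, and 0.71 and 0.84 for pair 3. All 6 arrays were positive, which held for 3.72% of all rows (4.31% were negative on all 6), and the dye swaps differed by at most 0.13. The mean was 0.49 ± 0.35 (SD, n = 3), or 1.40-fold, with a 95% interval from 0.13 to 0.84 and limma adjusted p = 0.322. Without pair 1 it was 0.68 (SE 0.07), with limma adjusted p = 0.0166. In the fit to all 6 arrays, where each pair was a random block, C4b came closest to the threshold of the 7 genes, at limma adjusted p = 0.0957. C4a, a near copy of C4b, could be read by the same probe.

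C2 encodes the protease that joins C4 in that enzyme, and it did not follow C4b. C2 gave 0.10 and 0.11 for pair 1, -0.14 and -0.01 for pair 2, and 0.17 and -0.02 for pair 3. These values fall on both sides of 0. The mean was 0.04 ± 0.10 (SD, n = 3), with limma adjusted p = 0.829. The 95% interval ran from -0.12 to 0.19 and overlapped those of C1ra (0.15 to 1.17) and C4b (0.13 to 0.84). Differences between these genes were not tested.

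Cfb encodes factor B, the counterpart of C2 in the alternative pathway, and the genes for both are direct neighbours in the RefSeq table. For Cfb pair 1 gave 0.03 and -0.44, pair 2 gave 0.70 and 0.54, and pair 3 gave 0.97 and 1.01. Pairs 2 and 3 lay wholly above pair 1, whose 2 arrays differed by 0.48. The mean was 0.47 ± 0.61 (SD, n = 3), with a 95% interval from -0.12 to 1.06 and limma adjusted p = 0.488. Without pair 1 it was 0.80 (SE 0.10), or 1.75-fold, with limma adjusted p = 0.0243. Cfb exceeded C2 by 0.69 in pair 2 and 0.91 in pair 3 on the log2 scale and lay below it in pair 1, where the difference was -0.31.

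Serping1 encodes the C1 inhibitor, a serpin that inactivates C1r and C1s. For Serping1 pair 1 gave 0.13 and -0.21, pair 2 gave 0.60 and 0.29, and pair 3 gave 0.64 and 0.68. As for Cfb, the arrays of pair 1 fell on both sides of 0 and below the rest. The mean was 0.35 ± 0.36 (SD, n = 3), with a 95% interval from -0.01 to 0.72 and limma adjusted p = 0.411. Without pair 1 it was 0.55 (SE 0.08), or 1.47-fold, with limma adjusted p = 0.0305. In pairs 2 and 3 Serping1 lay on the same side of 0 as C1ra, the gene of its target protease, at a smaller ratio, and in pair 1 the values were -0.04 for Serping1 and 0.07 for C1ra.

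C3ar1 and C5ar1 are the receptors for C3a and C5a, carried mainly by myeloid cells. For C3ar1 pair 1 gave 0.33 and 0.26, pair 2 gave -0.14 and 0.31, and pair 3 gave -1.17 and 0.23. The lowest value came from 1 array of pair 3, and its dye-swap partner lay 1.40 higher. The mean was -0.03 ± 0.40 (SD, n = 3; limma adjusted p = 0.952), with a 95% interval from -0.43 to 0.37, and over the 5 other arrays it was 0.20.

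C5ar1 gave -0.16 and -0.03 for pair 1, -0.13 and -0.18 for pair 2, and 0.13 and -0.63 for pair 3. It was negative on 5 of 6 arrays, and the arrays of pair 3 differed by 0.76. The mean was -0.17 ± 0.08 (SD, n = 3), with a 95% interval from -0.31 to -0.02 and limma adjusted p = 0.363. The small SD covers pair means and hides the gap between the arrays of pair 3. C5ar2, the second receptor for C5a and the direct neighbour of C5ar1, had 0.06, 0.15 and 0.23 in pairs 1, 2 and 3, on the other side of 0 (limma adjusted p = 0.418).

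**Figure D1:**
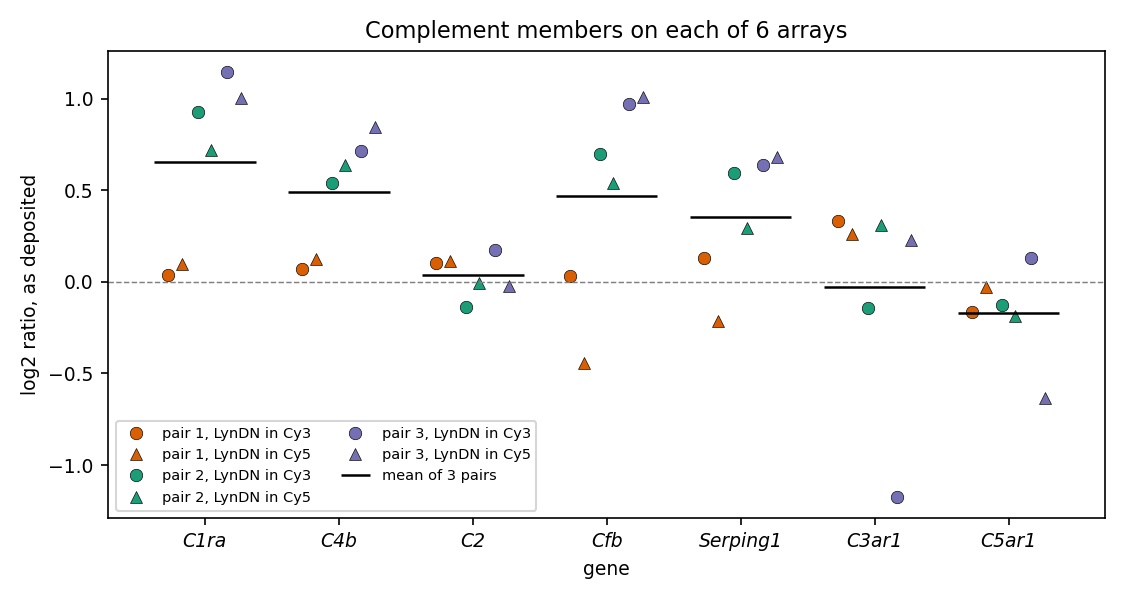
Log2 ratio as deposited (y axis) of the 7 measured complement genes (x axis) on each of 6 arrays, coloured by mouse pair, with circles for LynDN in Cy3, triangles for LynDN in Cy5 and a bar for the mean of 3 pairs. For C1ra, C4b, Cfb and Serping1 the arrays of pairs 2 and 3 lie between 0.29 and 1.15 and those of pair 1 between -0.44 and 0.13, and 1 array of C3ar1 lies at -1.17.

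At an unadjusted limma p under 0.05, 2 of 7 genes were positive (C4b and C1ra) and 1 was negative (C5ar1). The background was 5.92% of rows positive and 6.41% negative by the same rule. The median of the 7 genes was 0.07, 0.45 and 0.66 in pairs 1, 2 and 3, against medians within 0.02 of 0 over all rows. With the pair as a random block, 0 of 7 passed, against a background of 0.603% positive and 0.459% negative.

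**Figure D2:**
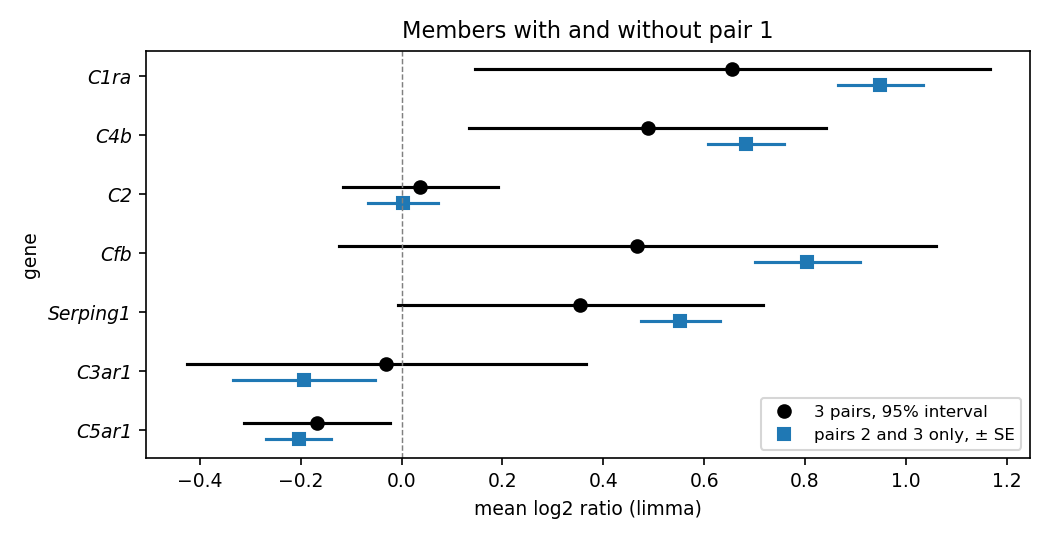
Mean log2 ratio (x axis) of each measured complement gene (y axis), with black points and 95% intervals for limma on 3 pairs. Blue squares with 1 moderated SE are for pairs 2 and 3 alone. Intervals over 3 pairs are wide for C1ra (0.15 to 1.17) and Cfb (-0.12 to 1.06) and narrow for C2 (-0.12 to 0.19).

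Of the rest of the complement system, 44 further genes were measured, and 0 passed over the 3 pairs. Without pair 1, 6 passed positive and 1 negative, against backgrounds of 3.22% and 1.67%. The positive ones were the 3 chains of C1q, C1s2, properdin and Cpn1, and the negative one was clusterin (Clu). The median of the 44 mean ratios was -0.02, beside -0.01 over all rows.

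C1q is the recognition part of the classical pathway and in tissues is made mainly by macrophages. C1qa had -0.08, 0.53 and 0.74, C1qb had -0.08, 0.58 and 0.73, and C1qc had -0.15, 0.62 and 0.95 in pairs 1, 2 and 3. All 3 chains were below 0 in pair 1 and above 0.5 in the other pairs, the order over pairs that C1ra also had. They were named together after their values were seen. Over 3 pairs their limma adjusted p lay between 0.418 for C1qb and 0.460 for C1qc. Without pair 1 it was 0.0206, 0.0157 and 0.0215 for C1qa, C1qb and C1qc. These genes lie side by side in the RefSeq table, and their probes were separate.

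Of the 14 other classical and lectin pathway genes, 4 passed without pair 1, namely the C1q chains and C1s2. In the lectin pathway, the proteases Masp1 and Masp2 had means of 0.07 and -0.03, and the mannose-binding lectins Mbl1 and Mbl2, which recognise sugars, had 0.04 and -0.07. The ficolins, also recognition proteins, had 0.20 ± 0.17 for Fcna and 0.15 ± 0.04 for Fcnb (SD, n = 3), and Fcnb was positive on 6 of 6 arrays. The collectins Colec10, Colec11 and Colec12 had -0.08, -0.06 and 0.05. Of these lectin pathway genes 0 passed over the 3 pairs, with the pair as a block or without pair 1. Properdin (Cfp), measured beside Cfb for the alternative pathway, had -0.09, 0.38 and 0.45 in pairs 1, 2 and 3 (limma adjusted p = 0.483, and 0.0363 without pair 1). The terminal genes, whose products form the membrane pore, were measured for 6 of 7 names, and 0 passed in any of the 3 fits. Their mean ratios reached -0.18 ± 0.22 for C8a, -0.10 ± 0.11 for C8b and -0.12 ± 0.20 for C6 (SD, n = 3).

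Fluid-phase regulators other than Serping1 lay on both sides. Clu, whose product binds the terminal complex, had -0.09, -0.45 and -0.37 in pairs 1, 2 and 3 (mean -0.30 ± 0.19, SD, n = 3; limma adjusted p = 0.322, and 0.0367 without pair 1). Cpn1 encodes the catalytic subunit of carboxypeptidase N, which trims C3a and C5a, and had -0.11, 0.53 and 0.45 (limma adjusted p = 0.470, and 0.0241 without pair 1). The 2 arrays of pair 3 gave 0.80 and 0.10 for Cpn1. Of 9 membrane regulators 0 passed in any of the 3 fits. Cr1l, the rodent regulator Crry, had 0.23 ± 0.16, Csmd3 had 0.29 ± 0.21 and Cd59b, which blocks the pore, had -0.13 ± 0.11 (SD, n = 3). The 8 receptors other than C3ar1 and C5ar1 gave 0 passes too, with the C1q-associated surface protein Cd93 at 0.03, -0.32 and -0.40 (limma adjusted p = 0.427, and 0.0512 without pair 1).

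**Figure D3:**
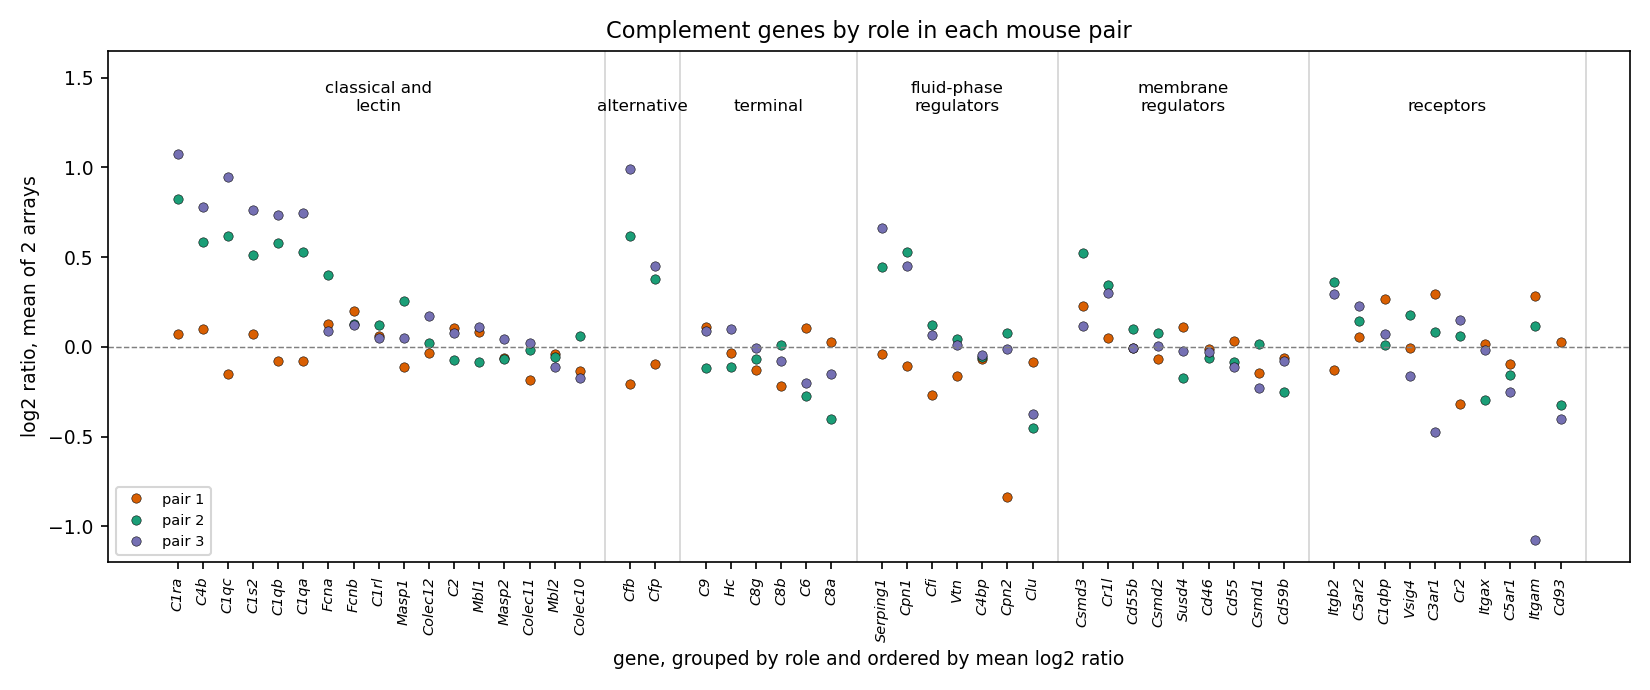
Log2 ratio in each mouse pair (y axis, mean of 2 arrays, coloured by pair) for 51 complement genes (x axis), grouped by role and ordered by mean. In pairs 2 and 3 C1ra, C4b, C1s2, C1qa, C1qb, C1qc, Cfb, Serping1 and Cpn1 lie above 0.4. Pair 1 lies between -0.21 and 0.10 for these genes.

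Markers of cells and responses were set beside these genes, since several cell types make complement. Macrophage and monocyte markers, measured for 11 of 15 names, had medians of -0.04, 0.46 and 0.81 in pairs 1, 2 and 3, with ranges of -0.27 to 0.14, -0.14 to 0.999 and 0.03 to 1.43. That order by pair was also the order of C1ra, C4b, Cfb, Serping1 and the C1q chains, and of the keratinocyte and interferon-gamma medians given below. Over the 3 pairs 0 of the 11 passed, with limma adjusted p = 0.380 for Fcgr3 and 0.344 for Cd14. Without pair 1, 7 of the 11 passed, all positive, against a background of 3.22% positive and 1.67% negative. Among these 7, Fcgr3 had 0.996 (SE 0.09; limma adjusted p = 0.0100) and Cd14 had 0.52 (SE 0.07; limma adjusted p = 0.0241). The part of these markers in the ratios of the complement genes was not tested. C3ar1 had 0.30, 0.08 and -0.47 and C5ar1 had -0.09, -0.16 and -0.25 in pairs 1, 2 and 3. The 2 arrays of pair 3 differed by 1.40 for C3ar1 and 0.76 for C5ar1, so their order over the pairs is uncertain.

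Neutrophil markers had medians of 0.21, 0.70 and 0.44 over 13 genes. Mast cell markers had -0.10, 0.36 and 0.29 over 8, and dendritic and Langerhans cell markers 0.07, 0.04 and 0.12 over 10. Of these, 9 neutrophil, 4 mast cell and 1 dendritic or Langerhans cell markers passed without pair 1, all positive, against the background of 3.22%. Over the 3 pairs 2 neutrophil markers passed, against 0.0175% of all rows called positive, and 0 mast cell and 0 dendritic or Langerhans cell markers. Fibroblast markers, of cells that make C1r, C1s and the C1 inhibitor, had -0.21, 0.04 and -0.10 over 12 genes, with 4 means above 0 and 8 below. Fap among them had -0.38 ± 0.10 (SD, n = 3; limma adjusted p = 0.237, 0.0267 with the pair as a block and 0.0439 without pair 1). Fbln1 had 0.28 ± 0.13 (SD, n = 3; limma adjusted p = 0.291, 0.177 with the block and 0.0690 without pair 1). Endothelial markers had -0.02, 0.00 and 0.09 over 10, and keratinocyte markers 0.08, 0.28 and 0.32 over 10. The keratinocyte genes went both ways: without pair 1, 2 passed positive (Krt14 and Krtdap) and 2 negative (Krt1 and Krt10). Over the 3 pairs 0 of the 10 passed. The basal keratin Krt14 had 0.72, 1.67 and 1.62 (limma adjusted p = 0.237, and 0.0295 with the block), and the suprabasal keratins Krt10 and Krt1 had -0.46, -1.94 and -2.92 and -0.012, -0.69 and -1.225. Hepatocyte markers had -0.05, 0.03 and -0.03 over 7 genes. Adipocyte and skeletal muscle markers had 0.12, -0.36 and -0.09 over 7 and 0.01, -0.20 and -0.68 over 7. Without pair 1, 2 adipocyte and 2 skeletal muscle markers passed, all negative, against a background of 1.67%, and over the 3 pairs 0 passed.

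Interferon-gamma and acute-phase signals are known inducers of complement genes. Interferon-gamma response genes, measured for 13 of 15 names, had medians of -0.23, 0.17 and 0.33 in pairs 1, 2 and 3, and 2 passed without pair 1, both positive, against the background of 3.22%. Acute-phase and STAT3 genes (12 of 12) had medians of 0.22, 1.02 and 0.95, and 8 passed without pair 1, all positive, against the same 3.22%. In the fit over 3 pairs 0 genes of either list passed. Haptoglobin (Hp), an acute-phase protein, had 0.59, 1.23 and 1.42, and Saa1 had 1.10, 1.002 and 0.40. Over the 3 pairs their limma adjusted p was 0.237 and 0.258, and with the pair as a block both passed, at 0.0255 and 0.0302. Hp followed the order of C1ra over the pairs and Saa1 ran the other way. As for the cell markers, a link to the complement genes was not tested.

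**Figure D4:**
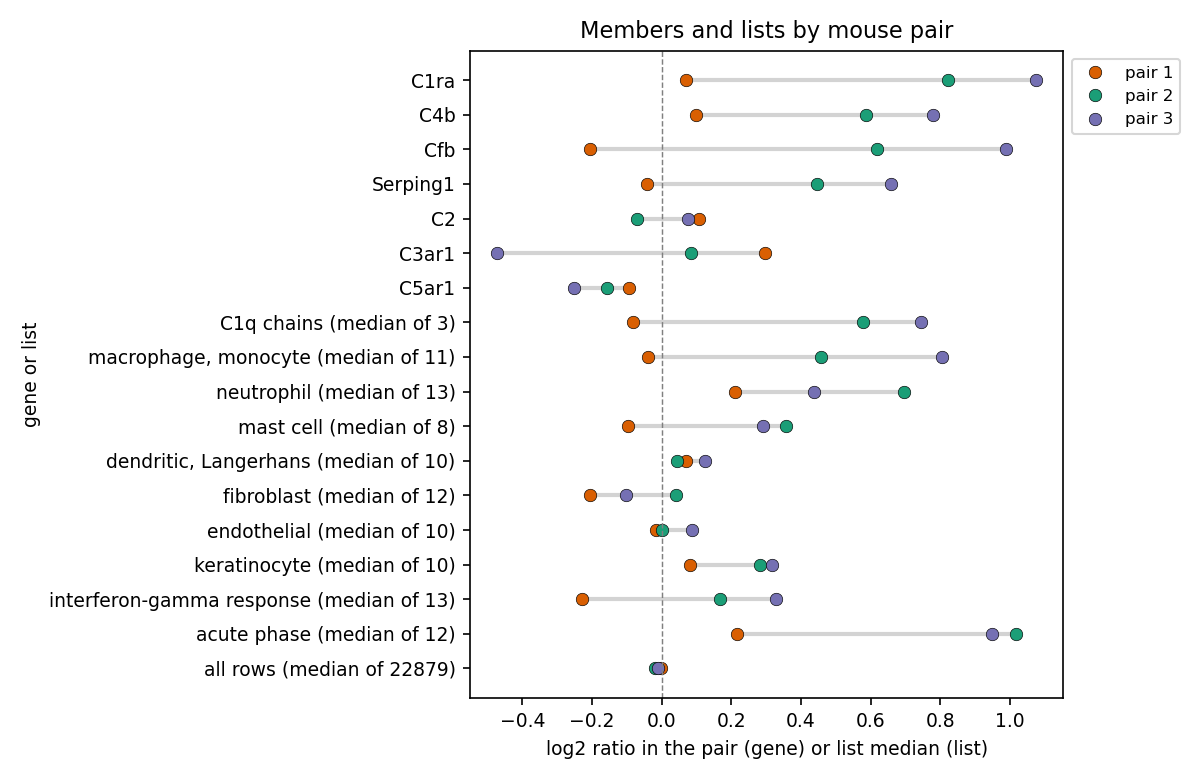
Log2 ratio in each mouse pair (x axis) for the 7 measured complement genes and, below them, the median of each marker or response list (y axis), coloured by pair and joined by a grey bar. C1ra, C4b, Cfb, Serping1, the C1q chains and the macrophage and monocyte, keratinocyte and interferon-gamma medians are lowest in pair 1 and highest in pair 3. The endothelial median also has that order, within -0.02 and 0.09.

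The genes most like the 7-gene mean profile were found by the root mean square difference of log2 ratios over the 6 arrays. They were Grk3 (0.0458), Inava (0.0545), Pira1 (0.0561), Khdrbs1 (0.0685) and Prdm1 (0.0708). For C1ra alone, a comparison added after its values were seen, they were the protease gene Prss22 (0.123), the cytokine gene Il20 (0.128), Hs3st1 (0.138), Cops3 (0.139) and the adhesion ligand gene Selplg (0.145). Prss22 had 0.17, 0.84 and 1.17 and Il20 had 0.16, 0.84 and 0.90 in pairs 1, 2 and 3. The 6 arrays hold only 3 independent pairs.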

How the data were processed

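Skin RNA of 3 LynDN and 3 WT mice was extracted with Qiagen and labelled with Ambion reagents for 2-colour arrays, per the labels' protocols. The authors deposited 1 log2 ratio for each of 25344 probes and 6 arrays. The log base is assumed, and the sources used here do not name the numerator, scanner, background correction or normalization. Array columns have a mean of 0. Probes were named through the platform annotation: 21082 had 1 symbol, 30 had several and 4232 had no entry. Probes were averaged per symbol, giving 22879 rows.

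Both arrays of a pair carry the same mice, per the labels, and were averaged. The mean of 3 pair values was compared with 0 by limma (version 3.58.1, R 4.3.3) over all rows (prior 2.96 degrees of freedom), with Benjamini-Hochberg adjustment and a threshold of 0.05. Intervals and each SE use the moderated error, which draws on the spread of other rows as well as that of the gene. The alternative with the pair as a random block and a dye term had a consensus correlation of 0.151. The fit was checked on simulated data. P-values of the fits to pair values also use the moderated error. They thus combine the gene's own spread between mouse pairs with the spread of other rows. Where a pair is left out, fewer pair values inform the gene's own part. Without variance moderation, 0 rows passed in the fit over 3 pairs. P-values of the block fit also draw on the spread between arrays of the same pair, treated as only weakly correlated (0.151). A pass in the block fit alone therefore does not show replication over mice.

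The genes and lists were chosen with earlier results of these data known. Named genes were all members, up to 3 of each complement list and 2 of each marker list by p, S100a8 and S100a9, sex-linked genes and 5 by likeness (to the mean profile, since C3 was not measured). C1qa, C1qb, C1qc, C1rl, the lectin pathway genes, Krt1, Krt10, Krtdap, the genes most like C1ra and those with an outlying array fall outside that rule and were named after their values were seen. Neighbours and promoters came from RefSeq GRCm38.p6.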

Additional observations from a re-analysis of the deposited data

Results flagged for a closer look

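The 51 measured complement genes were examined for an array far from the other 5, by Dixon's test at its 95% critical value, which chance passes in about 1 of 20 groups, and arrays of a dye swap are not independent. This marked 7 genes. C3ar1 had -1.17 on 1 array of pair 3, where the others lay between -0.14 and 0.33. Itgam, an integrin chain of a C3 fragment receptor, had -2.26 on the other array of pair 3 (others from -0.12 to 0.51). Cpn2, a subunit of carboxypeptidase N, had -1.54 on 1 array of pair 1 (others from -0.13 to 0.12), and Cr1l had -0.27 on the same array (others from 0.22 to 0.43). The C5 gene Hc had 0.27 on 1 array of pair 3, Csmd3 had 0.75 on 1 array of pair 2 and C1qbp had 0.39 on 1 array of pair 1.

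In 3 genes the sign turned with the dye on all arrays. The mean with LynDN in Cy3 minus that with LynDN in Cy5 was -0.31 for Mbl1, 0.24 for C4bp and 0.29 for the membrane regulator Cd55, and these differences were not tested.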

How the results depend on the processing

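The count of rows called over the whole table moved from 4 to 243 with the mouse pair as a random replicate block and a dye term, to 79 with quantile normalization, to 0 without variance moderation, and to 54 and 24 on the arrays with LynDN in Cy3 and in Cy5. Leaving out 1 pair gave between 2 and 1117 rows. The members called were 0, and between 0 and 4 with 1 pair left out; the other complement genes called were 0, and between 0 and 7. All of these calls came from leaving out pair 1. Without pair 2 or pair 3, 0 of 7 passed. The replicate block changed the call of no member. Of 91 member values under alternatives 85 kept direction and side of the threshold. Of 372 values of the 31 other complement genes named, 18 reversed, none in a called gene. C3ar1 reversed to 0.27 with LynDN in Cy5, where C6 had 0.021, Hc 0.052, Mbl2 0.051 and Uty 0.14. With LynDN in Cy3, Mbl1 had -0.12, C4bp 0.065, Cd55 0.089, Itgam 0.016 and Colec12 -0.070. Without the array of another date, Mbl1 had -0.0041, Cd55 0.022 and Colec12 -0.046. With 1 pair left out, the mean ran from -0.19 to 0.19 for C3ar1, -0.074 to 0.033 for Hc, -0.43 to 0.032 for Cpn2, -0.48 to 0.20 for Itgam, -0.0010 to 0.098 for Mbl1, -0.029 to 0.15 for Masp1, -0.10 to 0.0022 for Colec11, -0.0066 to 0.095 for Colec12 and -0.20 to 0.098 for Uty. The cause was not tested. Signal over background could not be used to set limits, and 3 pairs limit the precision.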
